A study of Mus musculus with 23 samples.

Results

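The 10 genes described here encode the enzymes that take tryptophan through kynurenine to NAD in the liver: Tdo2, Ido2, Afmid, Kmo, Kynu, Aadat, Haao, Acmsd, Qprt and Nadsyn1. They were chosen by symbol, with earlier results of these data known, from the 24440 genes of the deposited table of estimated counts. All 10 were found and tested among 12891 genes with enough reads. The 23 RNA-seq libraries come from perfused livers of male mice, 1 library per mouse, on a C57Bl/6 background, obtained at 6 to 8 weeks of age and then fed for 15 weeks. Wild type mice (WT), mice labelled as lacking Il4 (IL4KO) and mice labelled as lacking both Il10 and Il4 (dKO) received either normal chow or a high-fat diet (HFD) with 60% of its energy from fat. The 6 groups are named WT_chow, WT_HFD, IL4KO_chow, IL4KO_HFD, dKO_chow and dKO_HFD, with 4 mice in each except IL4KO_HFD, which had 3. The labels name no promoter, Cre driver or cell type for the deletions, and dKO mice share the labelled loss of Il4 with IL4KO mice.

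Most dietary tryptophan that is not used for protein is degraded in hepatocytes along the kynurenine pathway. The dioxygenases Tdo2 and Ido2 open the indole ring, the formamidase Afmid releases kynurenine, and Kmo, Kynu and Haao carry it on to an unstable semialdehyde that closes by itself to quinolinate. Qprt and Nadsyn1 turn quinolinate into NAD, the cofactor of redox reactions and of sirtuins and PARP enzymes, while Acmsd diverts the semialdehyde toward complete oxidation and Aadat diverts kynurenine to kynurenic acid. Tdo2 is a classical glucocorticoid-induced gene of liver, whereas Ido1, the neighbour of Ido2, is the interferon-induced enzyme of immune cells and other tissues.

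The genes lie apart in the mouse genome (GRCm38, GENCODE M21 gene models). Tdo2 lies at chr3:81957090-81976202, minus strand, Ido2 at chr8:24531892-24576333, minus strand, Afmid at chr11:117825924-117839908, plus strand and Kmo at chr1:175620381-175662116, plus strand. Kynu lies at chr2:43555329-43682715, plus strand, Aadat at chr8:60505932-60545677, plus strand, Haao at chr17:83831156-83847963, minus strand and Acmsd at chr1:127729413-127767978, plus strand. Qprt lies at chr7:127107114-127122226, minus strand and Nadsyn1 at chr7:143795584-143822849, minus strand. Acmsd and Kmo share chromosome 1 with Il10, at distances of 3.25 Mb and 44.6 Mb. Afmid overlaps Tk1 on the opposite strand by 169 bases and Gm20708, a locus that spans most of it, on the same strand, where strand cannot part the reads. Kmo overlaps Fh1 on the opposite strand by 5255 bases, and Acmsd overlaps 2900009J06Rik by 14363 bases. The kit was stranded, but whether the counting used strand is not given in the sources used here, so reads in these overlaps could not be assigned with certainty.

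RefSeq promoter windows (GRCm38.p6, 250 bases before to 50 after the start) were searched for 7 of the 10 genes (Tdo2, Afmid, Kmo, Haao, Qprt, Aadat and Nadsyn1). Each window was read on both strands for the nuclear receptor half-site AGGTCA, which was present in Tdo2 and Haao and in 16% of 27025 mouse promoters, and for the STAT motif TTCNNNGAA, which was present in Qprt and in 8.47% of promoters. A TATAAA box was found in Tdo2 (14.2% of promoters), GCGTG in Tdo2 and Haao (32.5%) and GTTAAT in Haao (7.2%). The letters TTGCNNAA (10.8%) and a glucocorticoid receptor motif (0.463%) were in none of the 7 windows. Shown are 2 stretches upstream of the RefSeq start that lie outside coding-transcript exons, of Haao and of Nadsyn1. The Haao stretch lies inside the GENCODE gene model, whose 5′ end is at chr17:83847963, so the 2 annotations place the start of Haao differently. Its AGGTCA match is on the opposite strand and is printed in capitals as TGACCT. Nadsyn1, a gene with small differences between groups, is without a match. Both stretches are written 5′ to 3′ on the gene's strand, at chr17:83846813-83847040, minus strand (Haao, where the last 22 bases before the RefSeq start are left out) and chr7:143822853-143823102, minus strand (Nadsyn1). The matches are descriptions of the letters, not of bound sites.
Haao: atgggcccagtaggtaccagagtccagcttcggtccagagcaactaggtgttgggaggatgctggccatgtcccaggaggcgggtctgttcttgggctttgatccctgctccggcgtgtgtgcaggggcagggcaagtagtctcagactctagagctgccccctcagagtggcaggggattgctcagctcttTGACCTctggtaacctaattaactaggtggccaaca
Nadsyn1: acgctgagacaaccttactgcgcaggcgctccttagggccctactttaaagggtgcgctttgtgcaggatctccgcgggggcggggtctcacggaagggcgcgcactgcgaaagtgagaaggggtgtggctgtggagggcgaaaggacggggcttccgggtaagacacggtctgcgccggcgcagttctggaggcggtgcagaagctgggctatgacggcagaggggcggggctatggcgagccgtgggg

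Library totals ran from 7114450 to 30205100 estimated counts, deepest in dKO_chow (16220800 to 30205100) and at the low end in IL4KO_HFD (7788330 to 8935350), and a member's count in a library ran from 32 (Acmsd) to 77993 (Tdo2). Il4 had 0 to 3 counts in every library and checks nothing. Il10 was read most in the libraries labelled as lacking it, with 41 to 67 counts in dKO_chow and 6 to 21 in dKO_HFD but 0 to 4 elsewhere. Counts per gene do not show whether a transcript is intact, so the label was not tested, and dKO below means libraries labelled dKO. The first principal component set dKO_chow apart, with dKO_HFD replicate 4 between dKO_chow and the other dKO_HFD libraries, and IL4KO_HFD replicate 2 lay at the edge of its group. The hepatocyte origin of the samples held in every group, since 10 hepatocyte markers summed to 94401 to 147824 CPM (a gene's counts scaled to a common library total) in a library, while kidney markers, as a check on another site of this pathway, were at or near 0 (5 or 6 of 6 at 0 in each group). In bulk tissue, fewer hepatocytes and less RNA per hepatocyte cannot be told apart.

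Levels below are CPM after scaling by trimmed mean of M values (TMM), given in the order of replicates 1 to 4 or as mean ± SD (n = 4, or 3 in IL4KO_HFD). Differences are log2 fold changes with standard error (SE) from edgeR's quasi-likelihood test, two-sided, and FDR is the p-value after Benjamini-Hochberg adjustment over all 12891 genes, with calls at an FDR below 0.05. Per kilobase of exon, Tdo2 was the most abundant of the 10 in every group, at 479.8 ± 32.4 CPM per kb in WT_chow. Haao (109 ± 8.40), Kmo (83.1 ± 3.09) and Qprt (46.3 ± 5.44) followed in WT_chow, then Kynu (43.9 ± 2.72), Aadat (41.6 ± 3.66), Afmid (36.7 ± 7.92) and Ido2 (24.4 ± 3.71 CPM per kb). From Qprt to Afmid each gene stood within the larger SD of its neighbour in that order, whereas Nadsyn1 (8.07 ± 0.939) and Acmsd (6.42 ± 1.44 CPM per kb) closed the order. The entry enzyme Tdo2 was thus read at much higher density than the final enzyme of NAD synthesis, and Acmsd or Nadsyn1 was the lowest in every group. In dKO_HFD and IL4KO_HFD Kmo stood above Haao in this order.

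**Figure D1:**
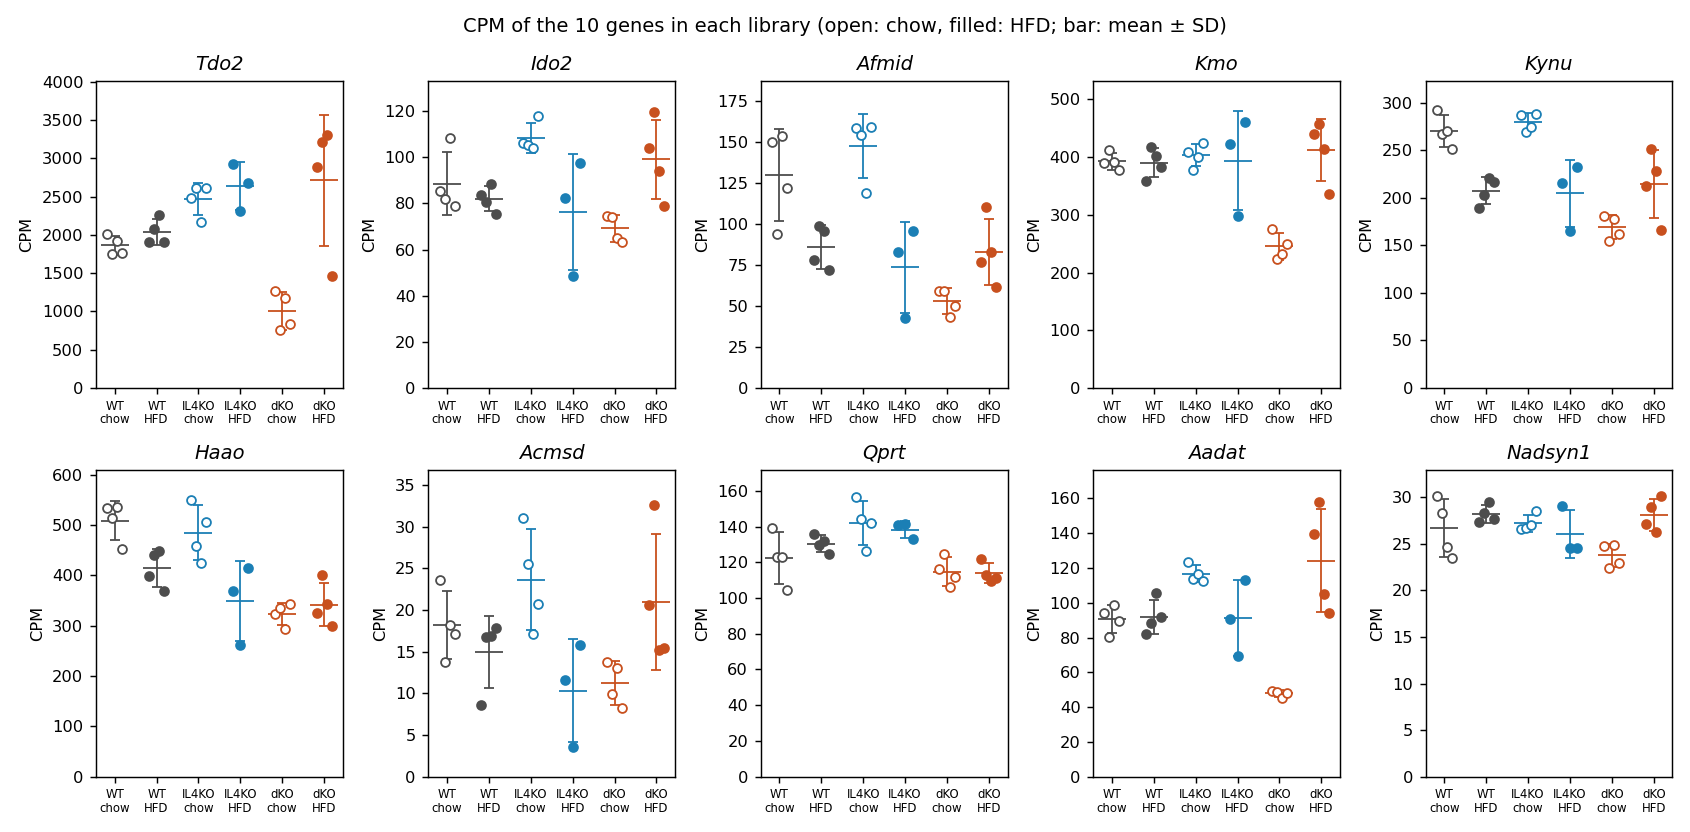
CPM (vertical axes, linear from 0) of the 10 genes in each library by group (horizontal axes), with open points for chow, filled points for HFD and bars for mean ± SD. The 4 dKO_chow points of Aadat lie at 45.2 to 49.4 CPM, below every other library, while the points of Qprt and Nadsyn1 stay in a narrow band across all 6 groups.

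On chow, the comparison of dKO with WT asks what the labelled double knockout changes without the high-fat diet. Most of the pathway was lower in dKO_chow: 6 of the 10 genes fell, namely Tdo2, Afmid, Kmo, Kynu, Haao and Aadat, and 0 rose, where 21.9% of all tested genes fell and 24.4% rose. The CPM of the groups did not overlap for 8 of the 10, where that held for 43.9% of all genes. The median log2 fold change was -0.68 over the 10 genes and 0.024 over all tested genes. The Qprt and Nadsyn1 steps toward NAD differed least.

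Tdo2, which opens the indole ring, read 2013, 1757, 1919 and 1760.1 CPM in WT_chow and 1268, 757, 1169 and 829.8 CPM in dKO_chow. Every dKO_chow library was below every WT_chow library, and Tdo2 fell by 0.89 on the log2 scale (SE 0.190, FDR 0.000712). Ido2, its less well characterised counterpart, read 85.4, 81.9, 108 and 78.7 CPM in WT_chow and 74.5, 73.9, 65 and 63.1 CPM in dKO_chow. The dKO_chow libraries all lay below the WT_chow libraries, but the difference of -0.36 missed the threshold (SE 0.153, FDR 0.0608). Ido2 passed it without WT_chow replicate 4 (FDR 0.0414), with relative log expression (RLE) scaling (0.0492), with DESeq2 (0.0394) and in the fit of these groups alone (0.0119). Afmid, the formamidase that frees kynurenine, read 150.2, 93.6, 154 and 122 CPM in WT_chow and 59, 59.4, 43.1 and 49.8 CPM in dKO_chow. It fell by 1.30 (SE 0.219, FDR 0.000119), the largest difference of the 10 genes, and its groups did not overlap. Tk1, which overlaps Afmid on the opposite strand, also fell, by 0.96 (FDR 0.00338), and its part in the Afmid reads was not tested.

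Kmo, the hydroxylase of the outer mitochondrial membrane that commits kynurenine to the NAD branch, read 389, 413, 391 and 378 CPM in WT_chow and 276, 224, 231 and 249 CPM in dKO_chow. It fell by 0.68 (SE 0.113, FDR 6.28e-05), with a wide gap between the groups. Fh1, which overlaps Kmo, fell by 0.44 (FDR 0.000807), and its part in the Kmo reads was not tested. Kynu, the hydrolase that cuts hydroxykynurenine, read 292, 267, 270.2 and 251 CPM in WT_chow and 181, 155, 178 and 162 CPM in dKO_chow. All dKO_chow libraries were lower, and Kynu fell by 0.68 (SE 0.108, FDR 4.13e-05). Aadat, the aminotransferase that leads kynurenine to kynurenic acid and also acts in lysine breakdown, read 94.1, 80.1, 98.7 and 89.3 CPM in WT_chow and 49.4, 48.5, 45.2 and 48.3 CPM in dKO_chow. The 4 dKO_chow libraries were nearly equal and all below WT_chow, and Aadat fell by 0.92 (SE 0.138, FDR 2.58e-05).

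Haao, the dioxygenase that makes the precursor of quinolinate, read 535, 514, 535 and 452 CPM in WT_chow and 323, 335, 294 and 344 CPM in dKO_chow. The groups did not overlap, and Haao fell by 0.65 (SE 0.122, FDR 0.000212). Acmsd, which competes with quinolinate formation, read 23.6, 13.8, 18.2 and 17.1 CPM in WT_chow and 13.7, 9.89, 13.1 and 8.26 CPM in dKO_chow. Its groups did not overlap, and the difference of -0.70 did not pass the test (SE 0.335, FDR 0.0970). Acmsd passed in the fit of these groups alone (FDR 0.0156). Qprt, which makes nicotinate mononucleotide from quinolinate, read 139, 123, 123 and 104 CPM in WT_chow and 116, 125, 106 and 112 CPM in dKO_chow, a difference of -0.092 (SE 0.0788, FDR 0.355). The Qprt ranges overlapped across most of their width. Nadsyn1, the NAD synthetase, read 30.2, 28.4, 24.7 and 23.5 CPM in WT_chow and 24.8, 22.5, 24.9 and 23 CPM in dKO_chow, a difference of -0.17 (SE 0.0759, FDR 0.0724). Its groups overlapped, and it passed the test without WT_chow replicate 3 (FDR 0.0413) or replicate 4 (FDR 0.0136) and after thinning to the smallest library (FDR 0.0452).

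Liver cell markers moved in the same comparison. Of 10 hepatocyte markers 1 rose and 6 fell, and their summed level was 94401 to 109415 CPM in dKO_chow against 127564 to 131021 CPM in WT_chow, a log2 ratio of medians of -0.27. Single hepatocyte markers ran from -1.46 to 1.05 (median -0.40). Markers of several other cell types were higher in dKO_chow. Rises were called for 10 of 11 Kupffer cell, 9 of 10 monocyte and macrophage and 9 of 9 tested neutrophil markers, and 0 fell. The same held for 6 of 8 T and NK cell and 7 of 7 tested cholangiocyte markers. Among the rest 3 of 5 tested dendritic cell and 2 of 8 stellate cell and fibroblast markers rose and 0 fell. Of 2 tested B and plasma cell markers 1 rose, and of 7 endothelial cell markers 1 rose and 2 fell. Neutrophil markers summed to 136 to 447 CPM in dKO_chow against 2.72 to 27.4 CPM in WT_chow, and cholangiocyte markers to 464 to 839 against 44.7 to 52.4 CPM. The part of this shift in the 10 genes was not tested. All 6 calls held in every alternative run, including the counts thinned to the smallest library and the removal of any 1 library.

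Against IL4KO_chow, dKO_chow was lower for the whole pathway. All 10 genes fell, where 22.2% of all tested genes fell, and the groups did not overlap for any of them, where 45.8% of all genes were separated. dKO_chow libraries are shared with the comparison to WT, so the 2 comparisons are not independent. Cell markers moved here too, and of 10 hepatocyte markers 1 rose and 6 fell. Rises were called for 11 of 11 Kupffer cell, 9 of 9 tested neutrophil, 7 of 7 tested cholangiocyte and 8 of 10 monocyte and macrophage markers. Their part in the fall of the 10 genes was not tested. Tdo2 read 2478, 2618, 2175 and 2620.0 CPM in IL4KO_chow and was 1.30 lower on the log2 scale in dKO_chow (SE 0.192, FDR 1.93e-05). Aadat read 123, 114, 117 and 112 CPM and differed by -1.28 (SE 0.139, FDR 8.99e-07). For both genes all 4 dKO_chow libraries were the lower ones. Afmid read 159, 154, 119 and 159 CPM in IL4KO_chow (-1.48, SE 0.221, FDR 3.46e-05), and Ido2 read 106, 105, 104 and 118 CPM (-0.65, SE 0.153, FDR 0.00183). Acmsd read 31.1, 25.6, 17.2 and 20.8 CPM and fell by 1.09 (SE 0.335, FDR 0.0128).

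Kynu was at 269 to 288 CPM in IL4KO_chow and fell by 0.73 (SE 0.108, FDR 2.10e-05). Kmo was at 378 to 424 CPM (-0.72, FDR 3.68e-05) and Haao at 425 to 551 CPM (-0.58, FDR 0.000572). The NAD-forming pair differed least: Qprt was at 126 to 156 CPM in IL4KO_chow (-0.31, FDR 0.00296) and Nadsyn1 at 26.6 to 28.6 CPM (-0.20, FDR 0.0418). The call of Nadsyn1 was lost without any 1 of IL4KO_chow replicates 1 (FDR 0.0528), 2 (0.0609), 3 (0.0635) or 4 (0.0520), without dKO_chow replicate 2 (0.116) or 4 (0.0901), with upper quartile scaling (0.277) and with the deposited log2 values (0.171).

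IL4KO_chow against WT_chow compares the labelled loss of Il4 alone with wild type on chow, and no member was called, where 9.61% of all tested genes were called in either direction. At an unadjusted p below 0.05 there were 3, and DESeq2 called 0. Tdo2 was at 2175 to 2620.0 CPM in IL4KO_chow above 1757 to 2013 CPM in WT_chow (0.41, SE 0.189, FDR 0.184), and the groups did not overlap. Aadat was at 112 to 123 CPM against 80.1 to 98.7 CPM (0.37, SE 0.138, FDR 0.0981), again with no overlap. These were the 2 members whose groups were apart, where 18.5% of all genes were. Both were called when only these 2 groups were fitted, at an FDR of 0.00659 for Tdo2 and 0.00497 for Aadat. Qprt differed by 0.22 (SE 0.0792, FDR 0.0853) and passed the test without IL4KO_chow replicate 3 (FDR 0.0482) or WT_chow replicate 1 (FDR 0.0371).

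**Figure D2:**
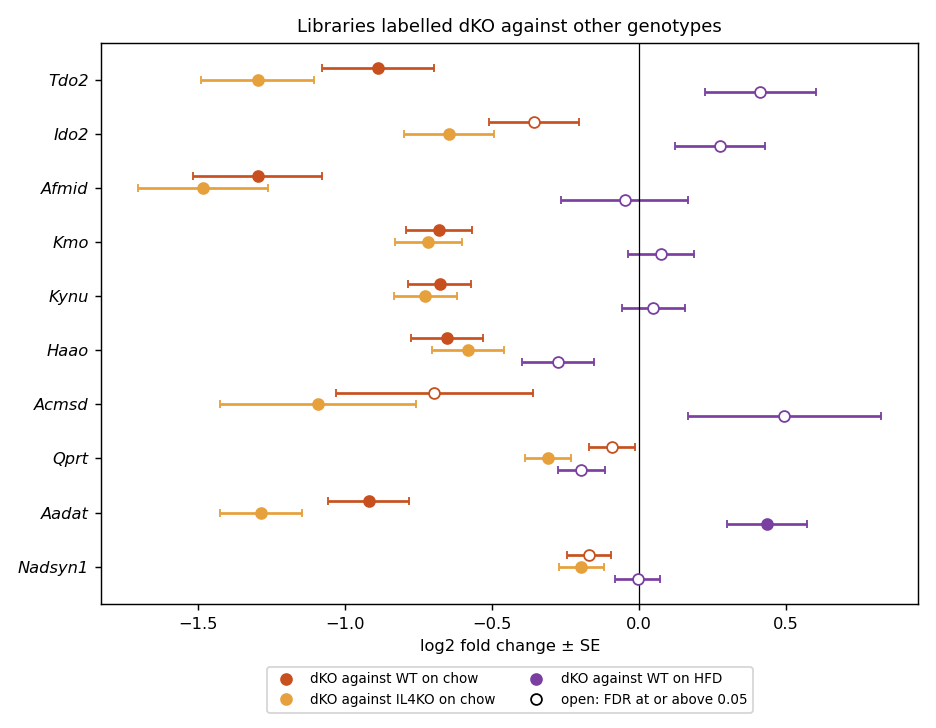
Log2 fold change ± SE (horizontal axis) of the 10 genes (vertical axis) in dKO against WT on chow, dKO against IL4KO on chow and dKO against WT on HFD, filled where the FDR is below 0.05. Both chow comparisons lie to the left of 0 for every gene, from -1.48 for Afmid to -0.092 for Qprt, while on HFD Aadat alone is filled, at 0.44.

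HFD against chow within dKO moved the pathway the other way. Of the 10 genes 8 rose and 0 fell, the exceptions being Haao and Qprt, where 19.4% of all tested genes rose and 20.5% fell. The groups did not overlap for 7 genes, where 31.6% of all genes were separated, and the median log2 fold change was 0.59 over the 10 genes and -0.020 over all genes. Its chow libraries are those of the comparisons above, so a low dKO_chow value enters both.

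Tdo2 read 2893, 3214, 3302 and 1459 CPM in dKO_HFD, against 757 to 1268 CPM in dKO_chow. It rose by 1.43 (SE 0.193, FDR 1.27e-05), and although replicate 4 was far below the other 3, no dKO_HFD library reached down into dKO_chow. Aadat read 139.7, 158, 105 and 94.1 CPM and rose by 1.38 (SE 0.139, FDR 9.19e-07). This was the change with the lowest p of the 10 genes and rank 22 of all genes tested. Kmo read 440.1, 457, 414 and 335 CPM and rose by 0.75 (SE 0.113, FDR 3.93e-05), and Ido2 read 104, 119.6, 94.1 and 78.7 CPM and rose by 0.52 (SE 0.152, FDR 0.0100). For both, the lowest dKO_HFD library stood above the highest dKO_chow library. Nadsyn1 read 27.2, 28.9, 26.3 and 30.1 CPM in dKO_HFD and rose by 0.24 (SE 0.0745, FDR 0.0125), a small change that was lost with upper quartile scaling (FDR 0.0781) and with the deposited log2 values (FDR 0.0537).

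Afmid read 76.9, 110.3, 82.8 and 61.8 CPM in dKO_HFD and rose by 0.65 (SE 0.217, FDR 0.0223). Its groups did not overlap, and the call was lost without dKO_chow replicate 3 (FDR 0.0639), dKO_chow replicate 4 (0.0515) or dKO_HFD replicate 2 (0.0968). Kynu read 213, 251, 228 and 166 CPM, with replicate 4 inside the dKO_chow range, and rose by 0.35 (SE 0.108, FDR 0.0139), lost without dKO_HFD replicate 2 (FDR 0.0656). Acmsd read 20.5, 32.6, 15.2 and 15.4 CPM and rose by 0.91 (SE 0.327, FDR 0.0323). dKO_HFD replicates 1 and 2 were the highest, and the call was lost without dKO_chow replicate 2 (FDR 0.0790) or 4 (0.0886), without dKO_HFD replicate 1 (0.0541) or 2 (0.163), after thinning (0.0668) and with the deposited log2 values (0.0820). Without dKO_HFD replicate 2, 5 of the 10 genes were called. Haao read 325, 401, 343 and 299 CPM (0.079, SE 0.122, FDR 0.639) and Qprt 122, 113, 109.7 and 111 CPM (-0.011, SE 0.0786, FDR 0.924), both overlapping dKO_chow, so of the genes that fell in dKO on chow, Haao was the 1 that was not called here.

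The cell markers reversed as well. Hepatocyte markers summed to 141170.0 to 147824 CPM in dKO_HFD, a log2 ratio of medians to dKO_chow of 0.41, with 5 of 10 higher and 1 lower. Neutrophil markers summed to 2.71 to 61.9 CPM in dKO_HFD and 9 of 9 fell, and all 11 Kupffer cell markers and 7 of 7 cholangiocyte markers fell. dKO_HFD replicate 4, which had the lowest value of its group for 7 of the 10 genes, had the highest neutrophil sum of its group and a hepatocyte sum of 141170.0 CPM, close to the other 3. This library was also the highest of its group for Kupffer cell (753 CPM against 322 to 429) and monocyte and macrophage markers (382 against 145 to 214). So it was for cholangiocyte markers (301 against 107 to 157), but not for stellate cell and fibroblast markers (240 against 207 to 313). It still lay above every dKO_chow library for 7 of the 10 genes. Without it and IL4KO_HFD replicate 2 together, 8 of the 10 genes were called. Whether the markers' shift contributes to the rise of the 10 genes was not tested.

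In WT and IL4KO no member was called higher on HFD. In WT 1 of the 10 genes, Kynu, fell and 0 rose, where 9.84% of all tested genes fell and 9.63% rose. Kynu read 189, 203, 221 and 216 CPM in WT_HFD against 251 to 292 CPM in WT_chow, a separation of every library, and fell by 0.38 (SE 0.108, FDR 0.0162). Afmid read 77.8, 98.7, 95.6 and 71.9 CPM against 93.6 to 154 CPM (-0.60, SE 0.217, FDR 0.0597) and passed the test without WT_chow replicate 2 (FDR 0.0307), with DESeq2 (0.0286), without robust estimation (0.0478) and in the fit of these groups alone (0.0413). Haao read 398, 442, 448 and 368 CPM in WT_HFD, with a difference of -0.30 (SE 0.122, FDR 0.0894). In the same comparison 4 of 10 hepatocyte markers fell, while their summed level had a log2 ratio of medians of -0.019. Of 8 stellate cell and fibroblast markers 4 rose, and the part of these markers was not tested. The 2 genes whose groups did not overlap were Kynu and Haao, where 24.3% of all genes were separated.

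The other 7 genes did not pass the test in WT. Tdo2 read 1907, 2076, 2266 and 1908 CPM in WT_HFD (0.13, FDR 0.681), Ido2 was at 75.3 to 88.2 CPM (-0.11, FDR 0.657) and Kmo at 359 to 418 CPM (-0.0086, FDR 0.971). Aadat was at 82.3 to 105 CPM (0.020, FDR 0.942). Acmsd read 8.55, 16.8, 16.8 and 17.8 CPM, with replicate 1 below every other WT library (-0.28, FDR 0.622). The NAD-forming enzymes Qprt, at 124 to 136 CPM (0.092, FDR 0.452), and Nadsyn1, at 27.3 to 29.6 CPM (0.078, FDR 0.519), had small positive point estimates.

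In IL4KO 3 of the 10 genes fell and 0 rose, where 3.94% of all tested genes fell and 5.14% rose, namely Afmid, Kynu and Haao. Afmid read 82.9, 42.6 and 95.8 CPM in IL4KO_HFD and fell by 1.01 (SE 0.242, FDR 0.0142). Kynu read 216, 165 and 233 CPM and fell by 0.45 (SE 0.118, FDR 0.0195), and Haao read 369, 261 and 416 CPM and fell by 0.48 (SE 0.133, FDR 0.0264). In all 3, every IL4KO_HFD library lay below every IL4KO_chow library, and replicate 2 was the lowest. Tk1, the overlapping neighbour of Afmid, fell by 1.11 (FDR 0.0224), and its part in the Afmid reads was not tested. The CPM did not overlap for 5 of the 10 genes (Ido2, Afmid, Kynu, Haao and Acmsd), where 19.6% of all genes were separated.

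These calls depended on IL4KO_HFD replicate 2. It was the lowest of its group for 8 of the 10 genes, and its hepatocyte markers summed to 95482 CPM against 133003 and 140624 CPM in the other 2. The same library was the highest of the 3 for monocyte and macrophage markers (336 CPM against 104 and 91.4), stellate cell and fibroblast markers (787 against 341 and 264) and cholangiocyte markers (170.1 against 48.7 and 42.9). In this diet effect 5 of 8 stellate cell and fibroblast markers and 3 of 10 monocyte and macrophage markers rose, and their part in the fall was not tested. Without replicate 2, 0 of the 10 genes were called (FDR 0.113 for Afmid, 0.205 for Kynu and 0.252 for Haao), and without replicate 3, 6 were, with Ido2 (0.00842), Acmsd (0.0207) and Aadat (0.0235) added. Kynu and Haao were also lost without IL4KO_chow replicate 1 (FDR 0.0507 and 0.0904), and Haao without IL4KO_chow replicate 4 (0.0594) or IL4KO_HFD replicate 1 (0.0510). Acmsd read 11.5, 3.58 and 15.8 CPM, spread widely within 3 mice, with a difference of -1.23 (SE 0.398, FDR 0.0594). Ido2 read 82.3, 48.4 and 97.6 CPM (-0.51, FDR 0.0607) and Aadat 90.6, 69.4 and 113 CPM (-0.36, FDR 0.136). Tdo2 read 2922, 2307 and 2683 CPM and Kmo 423, 297 and 461 CPM, both overlapping their chow range, and Qprt and Nadsyn1 were at 133 to 141 CPM and 24.6 to 29 CPM.

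**Figure D3:**
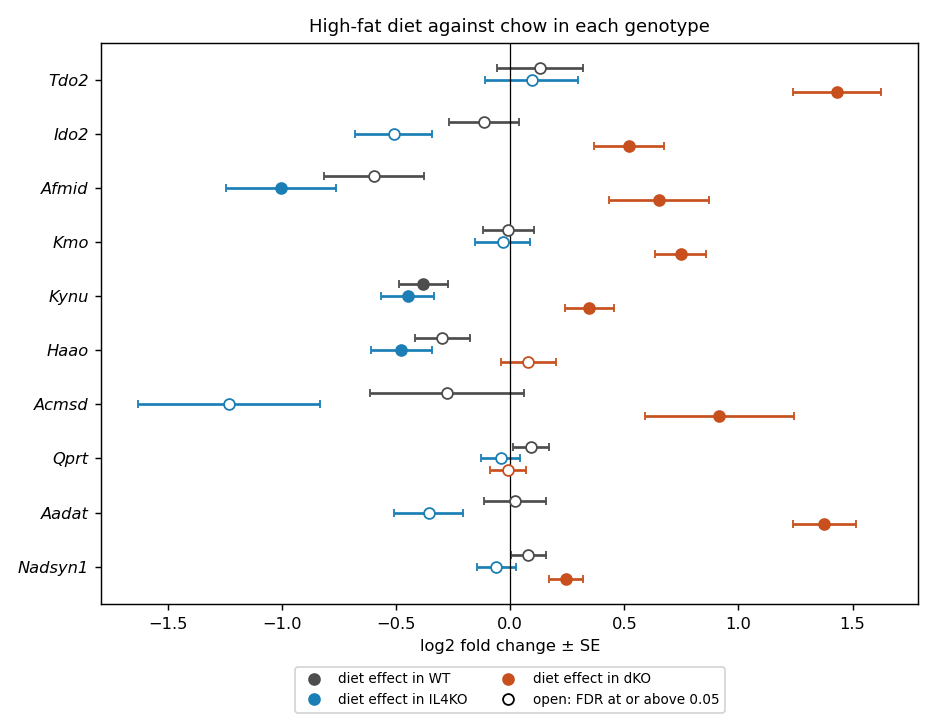
Log2 fold change ± SE of HFD against chow (horizontal axis) for the 10 genes (vertical axis) in WT, IL4KO and dKO, filled where the FDR is below 0.05. The dKO points of Tdo2 and Aadat lie at 1.43 and 1.38, while the filled WT and IL4KO points (Kynu in WT; Afmid, Kynu and Haao in IL4KO) all lie below 0.

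The difference between these diet effects was tested directly as an interaction of diet and genotype. The diet effect in dKO exceeded that in WT for 6 genes (Tdo2, Ido2, Afmid, Kmo, Kynu and Aadat) and fell short of it for 0, where 12.6% of all tested genes were called in the first direction and 12.6% in the other. It exceeded the effect in IL4KO for 8 genes, all but Qprt and Nadsyn1, and fell short of it for 0, where 12.7% and 11.7% of all genes were called in those directions. Without IL4KO_HFD replicate 2, 7 members were called against IL4KO, and the calls over all genes went from 3144 to 1293. The 2 interactions share the dKO libraries. Markers differed in both as well: 4 of 10 hepatocyte markers were called higher and 10 of 11 Kupffer cell and 9 of 10 monocyte and macrophage markers lower against WT, and 2 of 10, 9 of 11 and 9 of 10 against IL4KO. Their part was not tested. For Aadat the diet effect was 1.36 higher on the log2 scale in dKO than in WT (SE 0.194, FDR 0.000532) and 1.73 higher than in IL4KO (SE 0.205, FDR 0.000164), the latter at rank 2 of all tested genes. For Tdo2 it was 1.30 (SE 0.268, FDR 0.00292) against WT and 1.34 (SE 0.281, FDR 0.00279) against IL4KO, and for Afmid 1.25 (SE 0.307, FDR 0.00851) and 1.66 (SE 0.325, FDR 0.00228).

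Kmo, the branch point hydroxylase, had interactions of 0.76 (FDR 0.00320) and 0.78 (FDR 0.00311), and Kynu of 0.73 (FDR 0.00316) and 0.80 (FDR 0.00218). Ido2 exceeded WT by 0.63 (SE 0.216, FDR 0.0371), a call lost without WT_HFD replicate 1 (FDR 0.0522) or 4 (0.0705), WT_chow replicate 3 (0.0784), dKO_HFD replicate 1 (0.0635) or 2 (0.0826) or dKO_chow replicate 3 (0.0583) or 4 (0.0603), with upper quartile scaling (0.0559), after thinning (0.0558) and with the deposited log2 values (0.0771). Against IL4KO, Ido2 reached 1.03 (FDR 0.00396), Acmsd 2.15 (SE 0.515, FDR 0.00701) and Haao 0.56 (SE 0.180, FDR 0.0281). The Haao call was lost without IL4KO_HFD replicate 2 (FDR 0.119), IL4KO_chow replicate 1 (0.0602), dKO_HFD replicate 2 (0.0696) or dKO_chow replicate 3 (0.0541), with upper quartile scaling (0.0571), with the deposited log2 values (0.0510) and in the fit of the 4 compared groups (0.0617). Without dKO_HFD replicate 4, Acmsd (FDR 0.0415) and Haao (0.0454) passed against WT. The 2 genes also passed in the fit of the 4 compared groups (0.0398 and 0.0487). They passed without both dKO_HFD replicate 4 and IL4KO_HFD replicate 2 (0.0181 and 0.0151), and Acmsd passed with DESeq2 (0.038). Nadsyn1 passed against IL4KO without IL4KO_HFD replicate 1 (0.0197) or dKO_HFD replicate 3 (0.0465) and without the low-count filter (0.0446). Between IL4KO and WT no member's diet effect was called to differ, with 0 members at an unadjusted p below 0.05 and 0 by DESeq2, where 0.0465% of all tested genes were called by edgeR in either direction.

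On HFD a single member differed between dKO and WT. dKO_HFD against WT_HFD called 1 of the 10 genes higher and 0 lower, where 12.9% of all tested genes rose and 11.6% fell. Aadat was at 124 ± 29.7 CPM against 91.9 ± 9.81 CPM and rose by 0.44 (SE 0.137, FDR 0.0237), but the libraries overlapped. Of the markers, 6 of 7 tested cholangiocyte markers rose, and of 10 hepatocyte markers 3 rose and 1 fell. The part of these markers was not tested. The call of Aadat was lost without WT_HFD replicate 1 (FDR 0.0735), 2 (0.0562) or 4 (0.0509), without dKO_HFD replicate 1 (0.0671) or 2 (0.109) and in the fit of these 2 groups (0.0788). Tdo2 was at 2717 ± 857 CPM against 2039 ± 171 CPM (0.41, SE 0.189, FDR 0.114) and passed the test without dKO_HFD replicate 4 (0.62, FDR 0.00379). Haao, with 342 ± 43.3 CPM against 414 ± 37.8 CPM, was the member with the lowest point estimate (-0.27, SE 0.122, FDR 0.103). The 1 member whose groups did not overlap was Qprt, at 109.7 to 122 CPM in dKO_HFD and 124 to 136 CPM in WT_HFD (-0.20, FDR 0.0741), where 25% of all genes were separated.

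dKO_HFD against IL4KO_HFD called no member by edgeR, with 4 at an unadjusted p below 0.05 and 1 by DESeq2 (Qprt, adjusted p 0.0313), where edgeR called 2.51% of all tested genes in either direction. The groups did not overlap for 1 member (Qprt), where 11.4% of all genes were separated. Without IL4KO_HFD replicate 3, 4 members passed: Ido2 (FDR 0.0342), Acmsd (0.0456) and Aadat (0.0157) were higher in dKO_HFD and Qprt (0.0455) was lower. IL4KO_HFD against WT_HFD called no member, with 0 at an unadjusted p below 0.05 and 0 by DESeq2, where 3.02% of all tested genes were called. The groups did not overlap for 1 member (Tdo2), where 13.6% of all genes were separated. The widest difference there was Acmsd, at -0.56 (SE 0.399, FDR 0.546). Small numbers and the spread of IL4KO_HFD limit both comparisons, and a missed threshold does not show equal levels.

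The genes around the pathway were read in the same comparisons, from 9 lists chosen with earlier results of these data known. Their counts are to be read beside the shares of all tested genes. In dKO against WT on chow 24.4% rose and 21.9% fell. With HFD 19.4% rose and 20.5% fell in dKO, and 9.63% rose and 9.84% fell in WT. In dKO against WT on chow, 0 rose and 3 fell of 4 tested genes of the rest of the kynurenine pathway, with a list median of -0.70 beside 0.024 for all genes. Got2, a mitochondrial aminotransferase that can make kynurenic acid, was at 256 ± 20.3 against 409 ± 12 CPM (-0.68, FDR 3.22e-06). The kynurenine aminotransferases Ccbl1, at 94.1 ± 4.25 against 155 ± 4.45 CPM (-0.72, FDR 0.0175), and Ccbl2, at 99.5 ± 23.6 against 167 ± 15.5 CPM (-0.74, FDR 0.0116), fell too. Within dKO, HFD raised Got2 by 0.48 (FDR 0.000147), and 1 rose and 0 fell of the 4. Ido1, the interferon-induced dioxygenase, had 0 to 5 counts in a library and was not tested.

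The list of the branch downstream of Acmsd, which burns the carbon skeleton through glutaryl-CoA to acetyl-CoA, also holds Aass, the first enzyme of lysine breakdown. All 7 tested genes of that list fell in dKO on chow (list median -0.84), and 6 of 7 rose and 0 fell with HFD in dKO (list median 0.96 beside -0.020 for all genes). Acat1, the thiolase that yields acetyl-CoA, was at 214 ± 18 against 478 ± 63.4 CPM in dKO_chow and WT_chow (-1.16, FDR 5.12e-06) and rose by 1.38 with HFD in dKO (FDR 1.94e-06). Hadh, which dehydrogenates hydroxyacyl-CoA, fell by 0.84 in dKO on chow (FDR 5.19e-06) and rose with HFD in all 3 genotypes, by 0.68 in WT (FDR 0.000248), 0.66 in IL4KO (FDR 0.00170) and 0.96 in dKO (FDR 2.90e-06). Gcdh, glutaryl-CoA dehydrogenase, was at 362 ± 3.28 against 649.5 ± 37.5 CPM (-0.84, FDR 1.37e-05), and Echs1, enoyl-CoA hydratase, fell by 0.64 (FDR 4.47e-06). Several of these enzymes also serve lysine breakdown and fatty acid oxidation.

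NAD salvage and conversion, which recycles nicotinamide and phosphorylates NAD, was mixed. In dKO against WT on chow 2 rose and 6 fell of 14 tested genes (median -0.32), in the diet effect in dKO 7 rose and 2 fell (median 0.47) and in the diet effect in WT 6 rose and 1 fell (median 0.19). Nampt, the rate-limiting enzyme of nicotinamide salvage, was at 155 ± 12.9 against 63.6 ± 11.8 CPM in WT_HFD and WT_chow and rose by 1.29 with HFD in WT (FDR 8.98e-06), by 0.60 in IL4KO (FDR 0.0186) and by 0.68 in dKO (FDR 0.000851). On HFD it was lower in dKO than in WT by 0.71 (FDR 0.00126), whereas on chow the difference did not pass (-0.11, FDR 0.565). Nmrk1, the nicotinamide riboside kinase, rose by 1.20 with HFD in WT (FDR 0.000132) and was higher in dKO than WT on chow (0.66, FDR 0.00449). Nadk2, the mitochondrial NAD kinase, was at 111 ± 4.94 against 198 ± 14.8 CPM in dKO_chow and WT_chow (-0.83, FDR 1.02e-06) and rose by 0.69 with HFD in dKO (FDR 1.27e-05). Slc12a8, a reported nicotinamide mononucleotide carrier read at low levels, was higher in dKO than WT on chow. It was at 0.259 ± 0.226 CPM in WT_chow and 1.73 ± 0.747 CPM in dKO_chow (2.67, FDR 0.000195).

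Enzymes that consume NAD showed no common direction. In dKO against WT on chow 6 rose and 5 fell of 21 tested genes (median 0.0017), near the 24.4% and 21.9% of all genes. With HFD in dKO 4 rose and 8 fell (median -0.15), where 19.4% of all genes rose and 20.5% fell. The mitochondrial deacetylase Sirt3 fell from 86 ± 4.39 CPM to 50.7 ± 3.11 CPM in dKO on chow (-0.76, FDR 2.45e-06) and rose by 0.55 with HFD in dKO (FDR 0.000106). Sirt2, a cytosolic deacetylase, fell by 0.44 on chow (FDR 0.000128). Bst1, an ectoenzyme also found on myeloid cells, and Sarm1, an NAD hydrolase, rose in dKO on chow, from 0.0666 ± 0.0878 CPM to 1.21 ± 0.431 CPM (FDR 0.000458) and from 0.305 ± 0.196 CPM to 2.0 ± 0.337 CPM (2.66, FDR 0.000184). Both are low, and the immune cell markers given above rose in the same comparison.

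Other routes of tryptophan were also read. Of 11 tested genes of its transport and other fates, 2 rose and 4 fell in dKO against WT on chow (median -0.19). Of all tested genes 24.4% rose and 21.9% fell there. Inmt, an indole N-methyltransferase, fell from 318 ± 53 CPM to 68.4 ± 18.6 CPM (-2.21, FDR 1.55e-06) and stayed lower in dKO on HFD (-1.57, FDR 0.000130). Ddc, the aromatic amino acid decarboxylase, was lower in dKO on chow (-1.20, FDR 4.31e-05) and on HFD (-0.86, FDR 0.00276) and fell with HFD in WT (-0.60, FDR 0.0280). The monoamine oxidase Maob fell by 0.82 on chow (FDR 5.04e-05), and Slc7a5, a subunit of the large neutral amino acid carrier, rose from 1.88 ± 0.633 CPM to 4.67 ± 0.862 CPM (1.31, FDR 0.00380).

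Genes that share regulators with the pathway were given by the same lists. Of 15 glucocorticoid-responsive liver genes 2 rose and 6 fell in dKO against WT on chow (median -0.58) and 6 rose and 2 fell with HFD in dKO (median 0.50). Tat, the tyrosine aminotransferase and a classical glucocorticoid target like Tdo2, fell from 3261 ± 870.3 CPM to 936 ± 95 CPM (-1.80, FDR 0.000546), as did Sds, serine dehydratase (-1.50, FDR 4.91e-05), Pck1, a gluconeogenic enzyme (-1.46, FDR 0.000512), and Zbtb16, a zinc finger factor (-1.92, FDR 0.000322). With HFD in dKO these 4 rose by 1.0 (FDR 0.0302), 1.22 (0.000446), 1.18 (0.00336) and 1.24 (0.00895). Of 9 genes of the aryl hydrocarbon receptor, for which kynurenine is a known ligand, 2 rose and 3 fell in dKO on chow (median -0.066). In that comparison 24.4% of all tested genes rose and 21.9% fell. Ugt1a6a fell by 1.74 (FDR 1.14e-09) and Ugt1a6b by 1.11 (FDR 4.13e-08), a pair of glucuronosyltransferases that share exons so that their reads are uncertain between them. Cyp1a2, a classical target of the receptor, fell by 0.77 (FDR 0.00619) in dKO on chow and by 1.22 (FDR 0.000721) with HFD in WT, and Arnt, the partner of the receptor, rose by 0.35 (FDR 0.000614).

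Interferon gamma response genes, which respond to the cytokine that induces Ido1, ran the other way. Of 11 tested genes 6 rose and 0 fell in dKO against WT on chow (median 0.63) and 0 rose and 8 fell with HFD in dKO (median -0.75). Ciita, the master regulator of MHC class II genes, rose from 0.790 ± 0.513 CPM to 4.16 ± 1.06 CPM (2.37, FDR 0.000794) and Irf1, an interferon regulatory factor, from 24.6 ± 5.57 CPM to 56.1 ± 9.84 CPM (1.19, FDR 0.000966). The antigen processing genes Psmb8 (0.64, FDR 0.00262) and Tap1 (0.63, FDR 0.00249) rose as well, beside the immune cell markers, whose part was not tested. Ifng itself had 0 to 4 counts.

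Genes for the breakdown of other amino acids were mostly lower in dKO on chow and mostly higher with HFD in dKO. Of 37 tested genes of those routes 35 fell and 0 rose in dKO against WT on chow (median -0.89), and 30 rose and 1 fell with HFD in dKO (median 0.60). Otc, a urea cycle enzyme, fell from 479 ± 12 CPM to 217 ± 16.8 CPM (-1.14, FDR 4.13e-07), and Mccc1, of leucine breakdown, from 60.6 ± 3.0 CPM to 32.3 ± 2.08 CPM (-0.91, FDR 3.60e-07). Amt, of glycine cleavage (-0.73, FDR 3.60e-07), and Ftcd, of histidine breakdown (-0.96, FDR 5.15e-07), fell likewise. The median of the 10 tryptophan genes, -0.68, lay between that of these routes and that of all genes. Whether the tryptophan genes differed from that list was not tested. In the diet effect in WT 2 rose and 5 fell of the 37, with a median of -0.11.

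**Figure D4:**
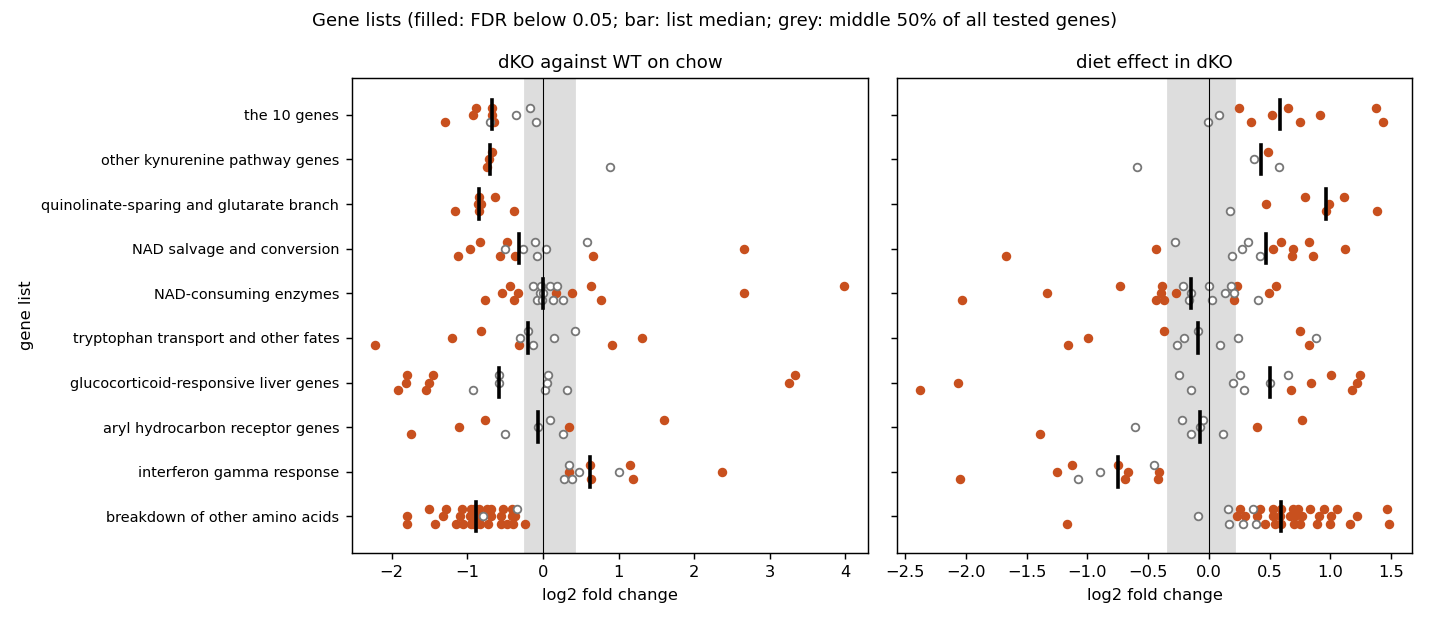
Log2 fold change (horizontal axes) of each tested gene of the 10 and of the 9 lists (vertical axis) in dKO against WT on chow (left) and in the diet effect in dKO (right), filled where the FDR is below 0.05, with the list median as a bar and the middle 50% of all tested genes in grey. The list of other amino acid breakdown has its median at -0.89 on the left and 0.60 on the right, on the same sides of 0 as the medians of the 10 genes.

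Over the 23 libraries most members moved together, as a description of libraries that share the same groups, depths and scaling. Pearson's r of log2 CPM was highest between Afmid and Kynu (0.92), Kmo and Aadat (0.91) and Afmid and Haao (0.91). Tdo2 went with Kmo (0.88) and Aadat (0.86) but less with Haao (0.31). Acmsd, which competes with quinolinate formation, went with Ido2 (0.83) and hardly with Qprt (0.059), the lowest value of all pairs. Qprt had no r above 0.43 with any other member, and Nadsyn1 none above 0.61.

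The tested genes whose pattern over the 23 libraries was most like each member were found among the 10581 that averaged 2 CPM or more. Tdo2 was closest to Mia2 (r 0.97) and Serinc1 (0.96), Kmo to Sult1b1 (0.96) and Cyp2j5 (0.95), and Aadat to LOC100048884 (0.95) and Dbt (0.94). Afmid was closest to Gnmt (0.96) and Aldh8a1 (0.95), the latter the dehydrogenase that acts on the product of Acmsd. Kynu was closest to Slc25a15 (0.96) and Arg1 (0.96), a mitochondrial ornithine carrier and arginase of the urea cycle, and Haao to Qdpr (0.96) and Gnmt (0.94). Ido2 and Acmsd were both closest to Mup1 (0.90 and 0.90), a major urinary protein gene whose reads are uncertain among near-identical copies, followed by Clcn2 (0.89) and Mpv17l (0.87). The closest genes of Qprt, Gna11 (0.77) and Vps9d1 (0.76), and of Nadsyn1, Gramd1c (0.75) and Tpmt (0.74), were less close.

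**Figure D5:**
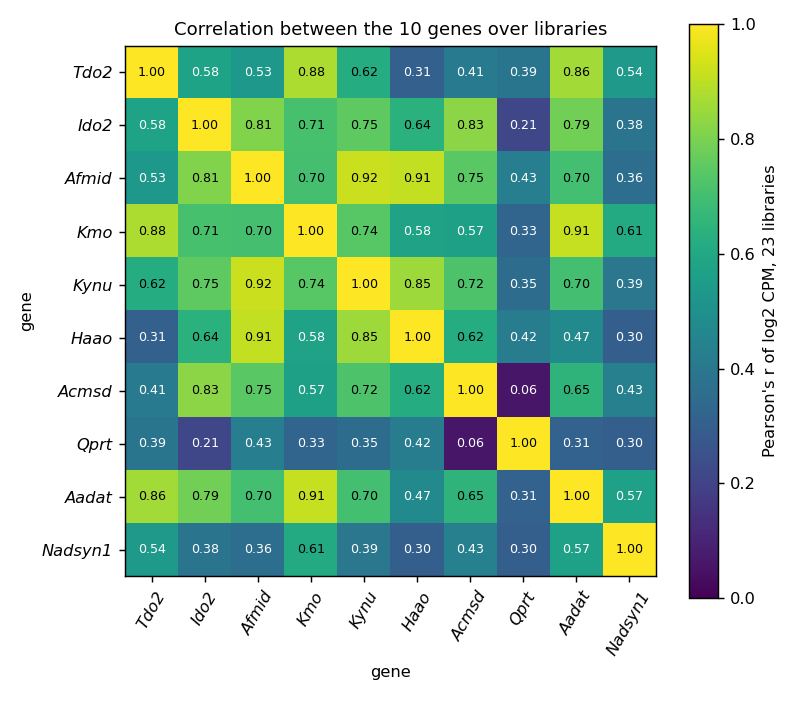
Pearson's r of log2 CPM over 23 libraries for each pair of the 10 genes, with genes on both axes and r as color and number. Values run from 0.059 for Acmsd and Qprt to 0.92 for Afmid and Kynu, and the row of Qprt is the darkest.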

How the data were processed

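A total of 23 mouse livers were sequenced as mRNA libraries from a strand-preserving kit, per the labels' protocols. The submitters' processing notes name bcl2fastq 2.16, TopHat2 2.0.8, Partek without a version, and mm10. Which annotation, counting rule and strand setting were used is not given in the sources used here. Estimated counts that the authors deposited for each gene symbol were rounded to whole numbers. The log2 values that the authors deposited served as an alternative. Their name carries the letters uqs, so they may share upper quartile scaling and are not taken as independent of that alternative. Gene positions came from GENCODE M21 and the promoter windows of 7 members from RefSeq (GRCm38.p6).

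edgeR 4.0.16 in R 4.3.3 was run with filterByExpr by group (12891 genes left), TMM scaling and 1 robust quasi-likelihood fit of the 6 group means in all 23 libraries (17 residual degrees of freedom, biological coefficient of variation 0.156). The 12 comparisons were 3 diet effects, 6 genotype pairs within a diet and 3 interactions. Tests were two-sided, and p-values were adjusted by Benjamini and Hochberg's method across all 12891 genes, with a threshold of 0.05. Log2 CPM for correlations used a prior count of 2. Named genes were the 10 members, up to 4 genes of each list called in the diet effect in WT or in dKO against WT on chow by the smaller FDR, and the 2 genes most correlated with each member, leaving out predicted genes. The members and lists were chosen with earlier results of these data known. Tat and Sds are in the glucocorticoid and amino acid lists, Tiparp in the NAD-consuming and aryl hydrocarbon receptor lists, and Pck1 and Cps1 also among the hepatocyte markers. Alternatives were RLE and upper quartile factors, no low-count filter, no robust estimation, the compared groups alone, DESeq2 1.42.0, limma 3.58.1 on the log2 values, thinning to the smallest library, both libraries that stood apart left out, and each library left out in turn. Simulated counts with planted changes were used to test the fit. The changes were planted in both directions, in dKO_chow alone and in a small set of genes, with no change in all others. For dKO against WT on chow the fit recovered 57.1% of 1.5-fold, 73.5% of 2-fold and 95.7% of 4-fold changes. Of its calls there, 3.18% were false. The deposited counts gave 5966 calls in this comparison. Both shares depend on how many genes change, so they describe the simulated setting and not the performance in these data.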

Additional observations from a re-analysis of the deposited data

Results flagged for a closer look

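Of 50 groups of 4 libraries, 3 held a library far from the others of its group, where chance gives about 1 in 20. Ido2 stood at 118.0 CPM in IL4KO_chow replicate 4, above the other 3 libraries at 104 to 106 CPM. Afmid stood at 118.8 CPM in IL4KO_chow replicate 3, below the other 3 at 154 to 159 CPM. Acmsd stood at 8.55 CPM in WT_HFD replicate 1, below the other 3 at 16.8 to 17.8 CPM.

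The diet effect differed between genotypes by the interaction test for 14 combinations of gene and genotype pair, all of them higher in dKO. On the log2 scale the diet effect in dKO exceeded that in WT by 1.30 for Tdo2, 0.63 for Ido2, 1.25 for Afmid, 0.76 for Kmo, 0.73 for Kynu and 1.36 for Aadat. It exceeded that in IL4KO by 1.34 for Tdo2, 1.03 for Ido2, 1.66 for Afmid, 0.78 for Kmo, 0.80 for Kynu, 0.56 for Haao, 2.15 for Acmsd and 1.73 for Aadat. The calls of Ido2 against WT and of Haao against IL4KO were lost without single libraries, as given in the report.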

How the results depend on the processing

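No member reversed its direction where it was called. Over the members called in at least 1 setting, 1080 values kept their side of the threshold, 44 gained and 56 lost it, and the cause was not tested. In the number of members called, the diet effect in WT gave 1, but 2 without robust estimation, 3 with the compared groups alone and 2 with DESeq2. The diet effect in IL4KO gave 3, but 0 with the compared groups alone, 0 without both libraries that stood apart (dKO_HFD replicate 4 and IL4KO_HFD replicate 2), 5 with DESeq2 and 5 with limma on the log2 values. IL4KO against WT on chow gave 0, but 2 with the compared groups alone. In dKO against WT on chow, Ido2 and Acmsd passed with the compared groups alone, and Ido2 with RLE scaling and with DESeq2. dKO against WT on HFD gave 1, but 0 with the compared groups alone, 3 without both libraries and 2 with DESeq2, and dKO against IL4KO on HFD gave 0, but 1 with DESeq2. Leaving out each library in turn gave 1 to 2 members in the diet effect in WT, 0 to 6 in IL4KO and 5 to 8 in dKO, 0 to 1 in IL4KO against WT on chow and 0 to 0 on HFD, 6 to 8 in dKO against WT on chow and 0 to 2 on HFD, 9 to 10 in dKO against IL4KO on chow and 0 to 4 on HFD, and 0 to 0, 5 to 8 and 7 to 9 in the IL4KO minus WT, dKO minus WT and dKO minus IL4KO interactions. Over all genes, 1170 calls in the diet effect in IL4KO became 236 without IL4KO_HFD replicate 2 and 528 with the compared groups alone, 389 in IL4KO against WT on HFD became 95 with the compared groups alone and 853 without both libraries, 323 in dKO against IL4KO on HFD became 4, 40 and, with DESeq2, 589, and 6 in the IL4KO minus WT interaction became 21 with the compared groups alone, 68 with DESeq2 and 14 with limma. Single libraries moved such counts by over 1.5 times: the diet effect in IL4KO gave 712 without IL4KO_chow replicate 1, 733 without replicate 3 and 2030 without IL4KO_HFD replicate 3. IL4KO against WT on HFD gave 185, 631 and 227 without IL4KO_HFD replicates 1, 2 and 3, and 227 and 186 without WT_HFD replicates 2 and 4. dKO against IL4KO on HFD gave 93, 39 and 1241 without IL4KO_HFD replicates 1, 2 and 3, and 106 and 118 without dKO_HFD replicates 2 and 4. The 3254 calls of the dKO minus WT interaction became 2130 without dKO_HFD replicate 2, the 3144 of the dKO minus IL4KO interaction became 1293 without IL4KO_HFD replicate 2, and the 6 of the IL4KO minus WT interaction became 3 without WT_chow replicate 2 or 4, IL4KO_chow replicate 2 or IL4KO_HFD replicate 2 or 3. Upper quartile scaling moved the share of calls that were higher from 52.8% to 63.2% in dKO against WT on chow, from 50.8% to 63.7% in dKO against IL4KO on chow and from 48.6% to 36.1% in the diet effect in dKO. The same scaling moved it from 49.9% to 38.3% and from 52% to 38% in the interactions of dKO with WT and IL4KO. No paired analysis was possible because the labels give no replicate numbers and the numbers used here follow the order of deposit. With the deposited log2 values that share was 37.4% in the diet effect in dKO, 63.3% in dKO against IL4KO on chow, 54.7% against 37.8% in dKO against IL4KO on HFD, 21.4% against 33.3% in the IL4KO minus WT interaction, and 37.2% and 40.0% in the interactions of dKO with WT and IL4KO. Thinning to the smallest library ended the calls of Acmsd in the diet effect in dKO (FDR 0.0668) and of Ido2 in the dKO minus WT interaction (FDR 0.0558), and Nadsyn1 passed in dKO against WT on chow (FDR 0.0452).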
